A study of Homo sapiens with 28 samples.

Results

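TMPRSS2, HPN, ST14, PRSS8, SPINT1 and SPINT2 form a system of trypsin-like proteases that sit on the surface of epithelial cells and the inhibitors that restrain them. These 6 genes were taken by their gene symbols from a count table of 61815 genes, and their RNA was followed in 28 libraries of LNCaP cells, an androgen-sensitive human prostate cancer cell line. All 6 passed the filter on low counts in both experiments. In the first experiment, cells in medium with charcoal-stripped serum (CSS), which is depleted of androgen, received 0.1% DMSO (vehicle), 1 µM Senexin B, 0.1 nM R1881 or R1881 with Senexin B for 24 hours (n = 3 libraries a group). In the second, cells in the same medium received 0.1% DMSO, 500 nM SNX631, 1 nM R1881 or R1881 with SNX631 for 72 hours (n = 4 libraries a group). R1881 is a synthetic androgen. The other agents, Senexin B and SNX631, block the Mediator kinases CDK8 and CDK19. The 4 groups of an experiment ask what androgen does to a gene, what the inhibitor does without androgen, and whether the inhibitor alters the androgen response. The labels give 1 µM for Senexin B, while the study's own text names a different concentration, so its dose is uncertain. All libraries came from 1 unmodified cell line. The study describes its RNA-seq replicates as biological, and the labels do not say how the cultures of a group were kept apart, so p-values measure the spread between these libraries.

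TMPRSS2, HPN (hepsin) and ST14 (matriptase) are type II transmembrane serine proteases, which are made as inactive precursors and become active when their own chain is cut. PRSS8 (prostasin) is a trypsin-like protease held on the membrane by a lipid anchor, and it works in a cascade with matriptase. SPINT1 and SPINT2 encode the membrane-bound inhibitors HAI-1 and HAI-2, whose Kunitz domains plug the active sites of matriptase, hepsin, prostasin and related enzymes. In the prostate, TMPRSS2 is a classic target of the androgen receptor, and its promoter is the part that becomes joined to ETS family genes in many prostate tumours. The balance between these proteases and their inhibitors is studied in epithelial cancers because the enzymes activate growth factors and receptors at the cell surface.

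The common chemistry of the 4 proteases is visible in their coding sequence. The 48-base coding stretches below, read on the coding strand from GENCODE 29 transcripts (GRCh38), are shown because they carry the catalytic serine that defines the family; the capitals mark the 18 bases of the conserved motif around it.
TMPRSS2: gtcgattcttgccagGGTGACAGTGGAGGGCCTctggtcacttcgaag
HPN: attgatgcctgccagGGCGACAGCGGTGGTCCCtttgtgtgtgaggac
ST14: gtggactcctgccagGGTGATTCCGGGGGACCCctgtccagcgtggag
PRSS8: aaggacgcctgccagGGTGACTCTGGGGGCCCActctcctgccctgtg
The motif begins at codon 439 of 492 in TMPRSS2, 351 of 417 in HPN, 803 of 855 in ST14 and 236 of 343 in PRSS8, and in each gene the stretch runs across the junction of 2 exons. Between pairs of genes, 11 to 14 of the 18 motif bases and 27 to 35 of the 48 bases were identical. The motif was found with a search pattern that fixes most of its bases, so part of this likeness was set in advance.

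The inhibitors carry a motif of their own, and each of them carries it at 2 places. The stretches below are shown because they lie in the Kunitz domains, and the capitals mark the 18 bases of the motif searched.
SPINT1 first: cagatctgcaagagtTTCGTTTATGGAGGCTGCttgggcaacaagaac
SPINT1 second: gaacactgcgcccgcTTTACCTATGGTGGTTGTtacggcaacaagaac
SPINT2 first: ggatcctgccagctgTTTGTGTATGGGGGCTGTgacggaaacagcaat
SPINT2 second: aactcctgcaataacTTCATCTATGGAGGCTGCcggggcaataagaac
The motif of the first SPINT1 stretch and that of the second SPINT2 stretch had 16 of 18 bases in common, whereas the 2 motifs within SPINT1 had 11. Most bases of this motif are also fixed by the search pattern. Each of these 4 stretches lies in a single exon, exons 5 and 9 of 11 in SPINT1 and exons 2 and 5 of 7 in SPINT2.

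The genes lie on 5 chromosomes in GRCh38. TMPRSS2 is at chr21:41464551-41531116 on the minus strand, HPN at chr19:35040506-35066571 on the plus strand and ST14 at chr11:130159562-130210376 on the plus strand. PRSS8 is at chr16:31131433-31135762 on the minus strand, SPINT1 at chr15:40844018-40858207 and SPINT2 at chr19:38244035-38292614, both on the plus strand. Part of the exonic sequence of SPINT2 is shared with a read-through gene on the same strand, AC011479.1, which had a median of 919.585 counts, and the SPINT2 counts held fractions in 26 of 28 libraries. SPINT1 overlaps an antisense gene, SPINT1-AS1, with a median of 139.5 counts; the library kit keeps strand, but the strand setting of the counting is not given in the sources used here.

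The libraries held 9846595 to 33809419 counts; the vehicle library of the 24 h experiment numbered 3 held the most and the next deepest held 15248512. The summed markers of luminal prostate epithelium (KRT8, KRT18, EPCAM, FOLH1, SLC45A3, HOXB13) were between 2550 and 3310 CPM (counts scaled to a common library size) in every library. Those of basal epithelium reached at most 0.441 CPM and those of leukocytes at most 0.700 CPM. Of the 4 fibroblast markers, COL1A1 (7.36 to 31.4 CPM) and COL3A1 (0.878 to 12.9 CPM) were present, and COL1A2 and DCN were at or near 0. KLK3, which encodes prostate-specific antigen, marked the labelled androgen treatment in every library, with 1.13 to 1.71 CPM in the vehicle group and 107 to 115 CPM in the R1881 group at 24 h.

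Androgen raised 2 of the 6 genes past the limits used here, a false discovery rate (FDR) below 0.01 in edgeR's quasi-likelihood test over all genes and a fold change (FC) over 1.5. TMPRSS2 rose 13.1-fold with 0.1 nM R1881 at 24 h and 17.2-fold with 1 nM R1881 at 72 h, and ST14 rose 1.51-fold and 1.58-fold. For HPN, PRSS8, SPINT1 and SPINT2 the fitted change lay between -15.9% and 1.19% of the vehicle level in both experiments. For comparison, 19% of the 15948 genes tested at 24 h and 19.8% of the 16074 tested at 72 h were called, 9.81% and 9.7% as higher. The median absolute log2 fold change of the 6 genes, 0.149 at 24 h and 0.134 at 72 h, was below that of all genes tested, 0.262 and 0.255.

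**Figure D1:**
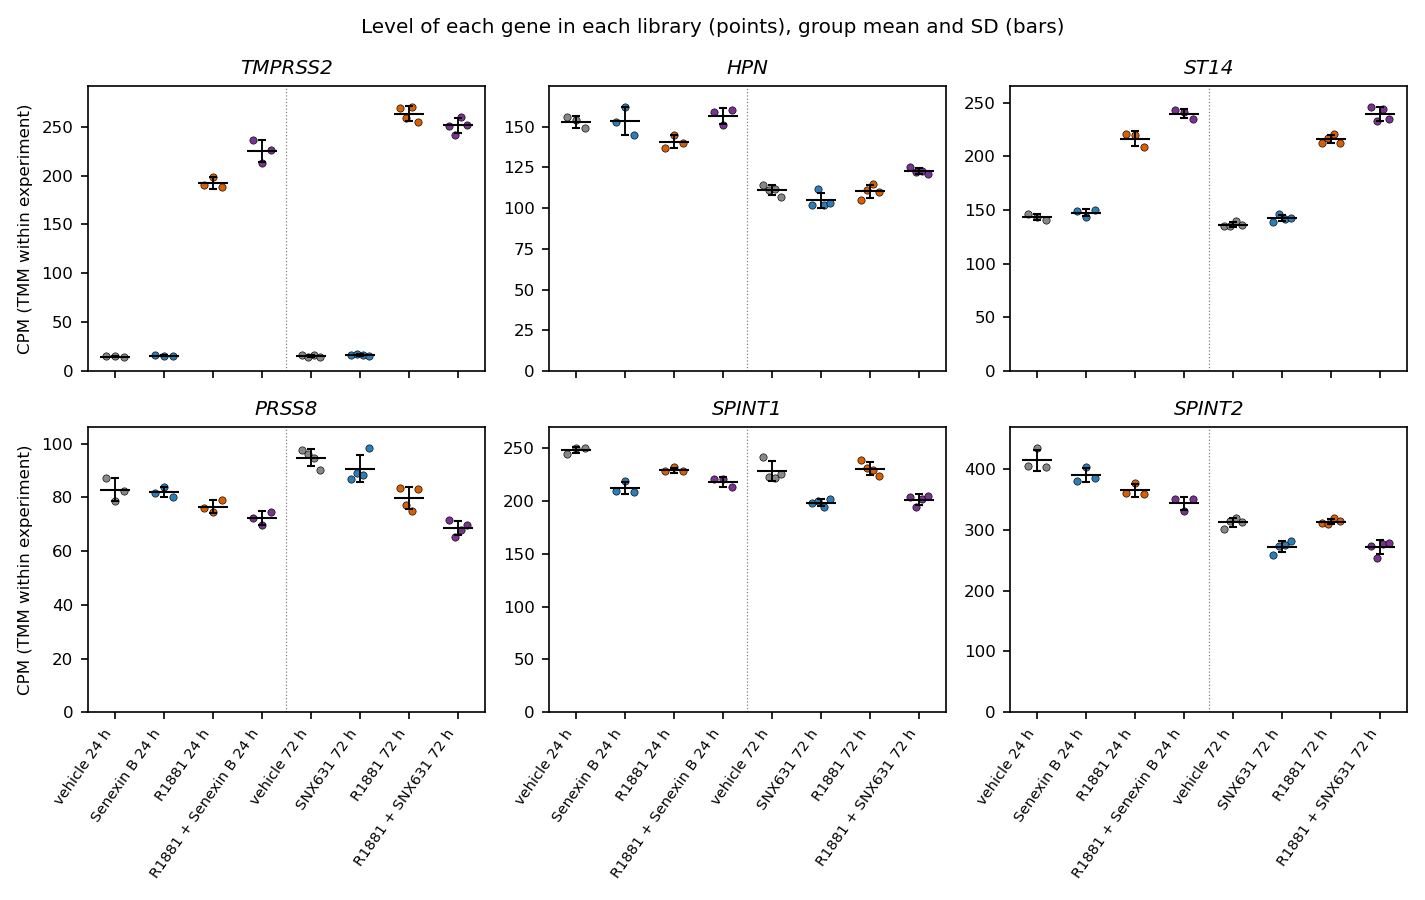
CPM of each of the 6 genes (vertical axes, from 0) in each of the 28 libraries, by group, with the group mean and SD; TMM scaling was done within each experiment, so levels are to be compared within the left or the right 4 groups. TMPRSS2 stands between 14.3 and 17.9 CPM in every library without R1881 and between 188 and 270 CPM in every library with it, ST14 shows a smaller step upward, and none of the other 4 genes rises with R1881 against vehicle: PRSS8 is lowest at 72 h with R1881 and SNX631, and SPINT1 and SPINT2 are lower with SNX631 than without it.

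TMPRSS2 separated the androgen-treated from the untreated libraries by an order of magnitude. At 24 h it stood at 15, 15 and 14.3 CPM in the vehicle libraries and at 190, 199 and 188 CPM with R1881. At 72 h it stood at 16.2, 14.3, 16.3 and 14.7 CPM in vehicle and at 269, 259, 270 and 255 CPM with R1881. No library of one condition came near those of the other in either experiment. The log2 fold change was 3.72 ± 0.052 (SE; FDR = 1.34e-32, edgeR) at 24 h and 4.10 ± 0.044 (FDR = 9.18e-42, edgeR) at 72 h. In a fit of all 28 libraries the R1881 effect was larger in the 72 h experiment by 0.39 ± 0.082 on the log2 scale (FDR = 5.52e-04, edgeR), but time, R1881 dose and experiment differ together and cannot be told apart. This difference passed the FDR limit for 2 of the 6 genes and for 7.54% of all genes.

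ST14, the matriptase gene, rose by a smaller amount that was alike in size in the 2 experiments. At 24 h it measured 146, 144 and 141 CPM in vehicle and 221, 220 and 209 CPM with R1881. At 72 h it measured 135, 135, 140 and 136 CPM in vehicle and 213, 217, 221 and 213 CPM with R1881. Every R1881 library was higher than each vehicle library of its experiment. For such separations of groups, here and in the other comparisons, the share of all genes that separate likewise was not counted. The log2 fold changes were 0.60 ± 0.034 (FDR = 4.2e-16, edgeR) and 0.66 ± 0.028 (FDR = 5.28e-22, edgeR), and their difference of 0.07 on the log2 scale did not pass the test (FDR = 0.304, edgeR). The call at 24 h sits close to the FC limit of 1.5, which is 0.585 on the log2 scale: the log2 fold change was 0.583 without the third, deepest vehicle library, and 0.519 at 24 h and 0.562 at 72 h with scaling to library totals only, each just short of the limit with an FDR far below 0.01.

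The other pair of proteases did not follow. HPN stood at 156, 154 and 149 CPM in vehicle and at 137, 145 and 140 CPM with R1881 at 24 h. The groups did not overlap there, yet the log2 difference of -0.12 missed the FDR limit (FDR = 0.0129, edgeR). At 72 h HPN ranged from 107 to 114 CPM in vehicle and from 105 to 115 CPM with R1881, 2 groups that overlapped fully. PRSS8 had 87.2, 78.7 and 82.5 CPM in vehicle against 76.0, 74.7 and 79.1 CPM with R1881 at 24 h, with overlapping groups and an FDR of 0.0368. At 72 h it had 97.6, 96.2, 94.7 and 90.3 CPM in vehicle against 83.5, 77.2, 75.1 and 83.0 CPM with R1881. Each of the 4 R1881 libraries lay below every vehicle library, and the log2 difference of -0.25 passed the FDR limit (FDR = 2.22e-06, edgeR) but not the FC limit.

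The inhibitors of the proteases moved little with androgen. SPINT1 had 245, 250 and 250 CPM in vehicle and 228, 232 and 228 CPM with R1881 at 24 h, a log2 difference of -0.12 (FDR = 0.00293, edgeR). At 72 h its range was 222 to 242 CPM in vehicle and 224 to 239 CPM with R1881, with a log2 difference of 0.02. SPINT2 had 405, 434 and 404 CPM in vehicle and 360, 377 and 358 CPM with R1881 at 24 h, a log2 difference of -0.18 (FDR = 4.14e-05, edgeR). At 72 h its range was 302 to 319 CPM in vehicle and 309 to 319 CPM with R1881. Thus both Kunitz inhibitors were slightly lower with R1881 in the 24 h experiment and overlapped with vehicle in the 72 h experiment. The difference between the experiments passed the FDR limit for SPINT2 (0.19 ± 0.045 on the log2 scale, FDR = 0.00209, edgeR) and not for SPINT1 (0.14, FDR = 0.0258, edgeR). Without the FC limit, 4 of the 6 genes passed the FDR limit at 24 h and 3 of 6 at 72 h, against 48.4% and 52.2% of all genes tested.

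The CDK8/19 inhibitors called none of the 6 genes, with or without R1881. The edgeR count was 0 of 6 for Senexin B alone, Senexin B with R1881, SNX631 alone and SNX631 with R1881, where 3.79%, 3.12%, 4.77% and 4.12% of all genes were called. DESeq2 also called 0 in each of the 4 comparisons. At an unadjusted edgeR p below 0.05 the counts were 2, 5, 4 and 6 genes, and the share of all genes at that p was not counted. The members' differences therefore passed in part without reaching the FC limit: 1, 3, 2 and 5 of the 6 genes had an FDR below 0.01, against 25.1%, 22.7%, 26.9% and 33.1% of all genes.

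**Figure D2:**
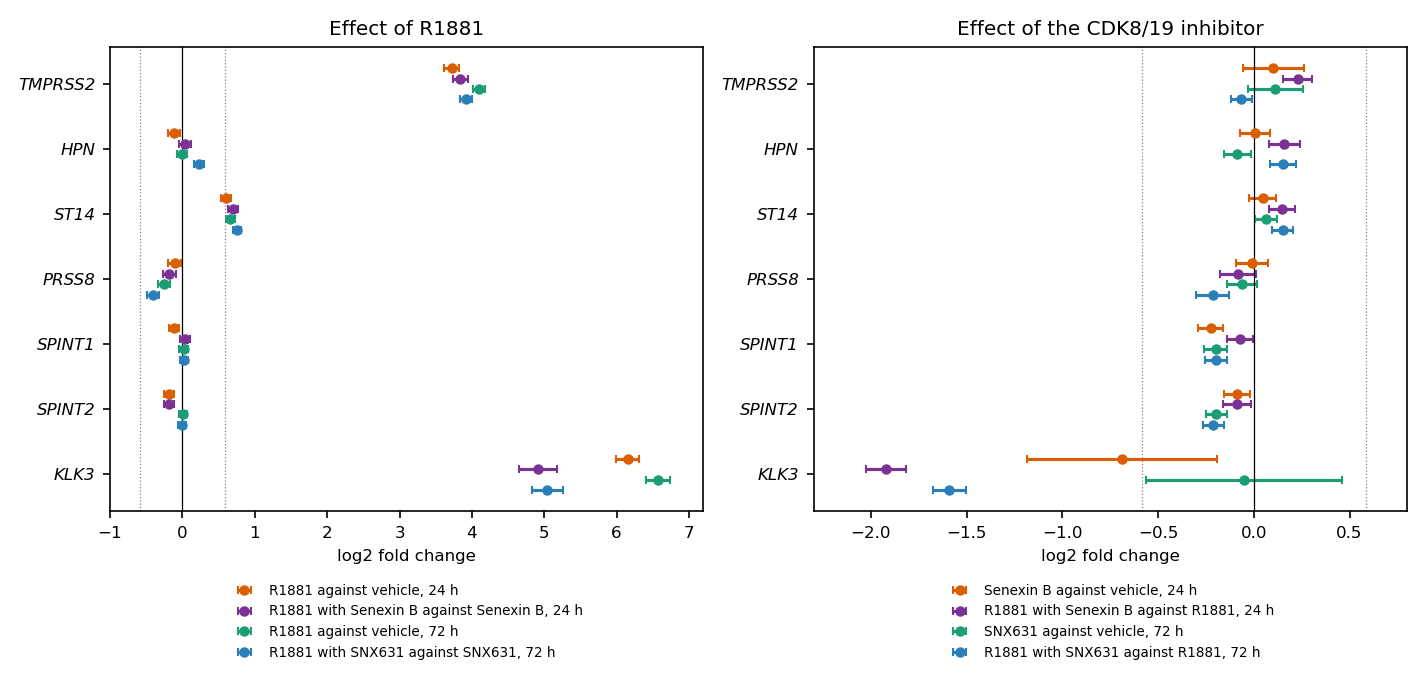
Log2 fold changes (horizontal axes) of the 6 genes and of KLK3 for R1881 (left) and for the CDK8/19 inhibitor (right), with bars of 2 SE and dotted lines at a fold change of 1.5 in either direction. For the inhibitor all 6 genes lie between the dotted lines, from -0.23 to 0.23, while KLK3 in the presence of R1881 lies at -1.92 with Senexin B and at -1.59 with SNX631.

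TMPRSS2 kept its androgen response under both compounds. With R1881 and Senexin B for 24 h it stood at 236, 213 and 226 CPM, all above the 3 libraries with R1881 alone. This log2 difference of 0.23 ± 0.037 passed the FDR limit (FDR = 1.26e-05, edgeR) and not the FC limit. With R1881 and SNX631 for 72 h it stood at 251, 242, 260 and 252 CPM, a range that overlapped with R1881 alone (log2 difference -0.07, FDR = 0.0567, edgeR). Without androgen it was 16.2, 15.2 and 15.7 CPM under Senexin B (FDR = 0.337, edgeR) and 15.7 to 17.9 CPM under SNX631 (FDR = 0.236, edgeR). R1881 raised it 14.3-fold in the presence of Senexin B and 15.2-fold in the presence of SNX631, and raised ST14 1.62-fold and 1.68-fold; these were 2 of 6 genes called in either comparison, where 18.9% and 22% of all genes were called. For TMPRSS2 the interaction of R1881 with the inhibitor did not pass at 24 h (0.13, FDR = 0.513) or at 72 h (-0.18, FDR = 0.138, both edgeR, log2 scale).

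KLK3 and KLK2, kallikrein genes known to be induced by androgen, gave other values in the same libraries. The study names both among its most androgen-responsive genes, whose induction was reduced by both compounds. It reports that most androgen-regulated genes were not significantly affected. KLK3 and KLK2 therefore do not stand for androgen-induced genes in general. KLK3 was 107, 115 and 109 CPM with R1881 and 29.6, 29.2 and 28.4 CPM with R1881 and Senexin B, 3.8-fold lower (FDR = 4.02e-23, edgeR). With 72 h of R1881 it ranged from 131 to 148 CPM and from 44.5 to 48.4 CPM with SNX631 added, 3-fold lower (FDR = 4.69e-27, edgeR). KLK2 was 4.08-fold lower with Senexin B and 3.77-fold lower with SNX631 in the presence of R1881. The log2 ratio of TMPRSS2 to KLK3 within a library, which does not depend on how libraries are scaled, was 0.80 ± 0.019 (SD, n = 3) with R1881 and 2.95 ± 0.074 with Senexin B added, and 0.93 ± 0.087 (SD, n = 4) with R1881 and 2.44 ± 0.071 with SNX631 added. In a two-sided exact permutation test the p was 0.1 at 24 h and 0.0286 at 72 h, in each case the smallest this number of libraries allows, and 0.104 and 0.0623 after Benjamini-Hochberg adjustment over 24 ratio tests. The groups thus did not overlap in this ratio. With these numbers of libraries and 24 tests, no adjusted p could fall below 0.05, so the adjusted p decides nothing.

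ST14 and HPN were slightly higher when an inhibitor was added to R1881. ST14 was 243, 241 and 235 CPM with R1881 and Senexin B, and 246, 233, 244 and 235 CPM with R1881 and SNX631. All 7 of these libraries lay above the R1881 libraries of their experiment, with log2 differences of 0.145 (FDR = 0.00117, edgeR) and 0.15 (FDR = 1.28e-05, edgeR). HPN was 159, 151 and 160 CPM with R1881 and Senexin B, and 125, 122, 123 and 121 CPM with R1881 and SNX631. These also lay above the R1881 libraries of their experiment, with log2 differences of 0.16 (FDR = 0.00278, edgeR) and 0.15 (FDR = 3.68e-04, edgeR). Without androgen neither gene passed the FDR limit with either compound. For HPN the difference itself was tested: the interaction of R1881 with SNX631 was 0.24 ± 0.049 on the log2 scale (FDR = 6.02e-04, edgeR) and that with Senexin B was 0.15 (FDR = 0.127, edgeR). For ST14 the interactions were 0.10 (FDR = 0.31, edgeR) and 0.09 (FDR = 0.158, edgeR). The interaction at FDR below 0.01 was passed by 2.09% of all genes at 24 h and 7.09% at 72 h.

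PRSS8 differed in the opposite direction at 72 h. It was 71.6, 65.2, 67.8 and 69.8 CPM with R1881 and SNX631, below each of the 4 libraries with R1881 alone (log2 difference -0.21, FDR = 8.06e-05, edgeR). At 24 h it was 72.5, 69.6 and 74.7 CPM with R1881 and Senexin B, and the log2 difference of -0.08 did not pass (FDR = 0.191, edgeR). R1881 with SNX631 gave the lowest group mean of PRSS8 in the 72 h experiment, and the fit put it 1.32-fold below SNX631 alone (FDR = 5.98e-11, edgeR). Its interaction of R1881 with SNX631 was -0.15 and did not pass (FDR = 0.081, edgeR).

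The 2 Kunitz inhibitor genes were lower under the CDK8/19 inhibitors. SPINT1 was 210, 219 and 209 CPM with Senexin B alone against 245, 250 and 250 CPM in vehicle, a log2 difference of -0.23 ± 0.032 (FDR = 1.41e-06, edgeR). With SNX631 alone it was 198, 200, 194 and 202 CPM, below each vehicle library (-0.20, FDR = 5.78e-07, edgeR). With R1881 and SNX631 it was 204, 194, 202 and 205 CPM (-0.20 against R1881, FDR = 5.51e-07, edgeR). In each of these comparisons the groups did not overlap, and the fitted changes were -12.8% to -14.5%. With R1881 and Senexin B it was 221, 221 and 213 CPM, a log2 difference of -0.07 from R1881 that did not pass (FDR = 0.0956, edgeR).

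SPINT2 showed this in the SNX631 experiment. It was 259, 274, 275 and 281 CPM with SNX631 alone and 274, 254, 277 and 279 CPM with R1881 and SNX631. Every one of these libraries lay below the libraries of its control group, with log2 differences of -0.20 (FDR = 4.99e-07, edgeR) and -0.21 (FDR = 8.18e-08, edgeR). With Senexin B the log2 difference was -0.09 both without R1881 (FDR = 0.0493, edgeR) and with it (FDR = 0.0623, edgeR). When the reads of the overlapping read-through gene were added, an alternative chosen after seeing the data, the SNX631 differences of SPINT2 were -0.19 and -0.21. Doses and times of Senexin B and SNX631 differ, so the compounds were not compared with each other.

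Per length of exon, the genes could be set against each other within an experiment. In the vehicle group at 24 h the order was SPINT2 at 79.7 ± 3.34 CPM per kb (SD, n = 3), SPINT1 at 70.1 ± 0.81, HPN at 45.3 ± 0.98, ST14 at 33 ± 0.51, PRSS8 at 27.5 ± 1.41 and TMPRSS2 at 2.42 ± 0.071. In the vehicle group at 72 h the order was SPINT1 at 64.4 ± 2.63 CPM per kb (SD, n = 4), SPINT2 at 60.0 ± 1.37, HPN at 32.9 ± 0.84, PRSS8 at 31.5 ± 1.05, ST14 at 31.4 ± 0.62 and TMPRSS2 at 2.51 ± 0.17. PRSS8 and ST14 did not differ there beyond their spread. With R1881 at 72 h, TMPRSS2 reached 43.0 ± 1.19 CPM per kb and stood between ST14 at 49.7 ± 0.85 and HPN at 32.7 ± 1.23. These levels use the union of annotated exons, so genes with long unused exons are set too low.

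**Figure D3:**
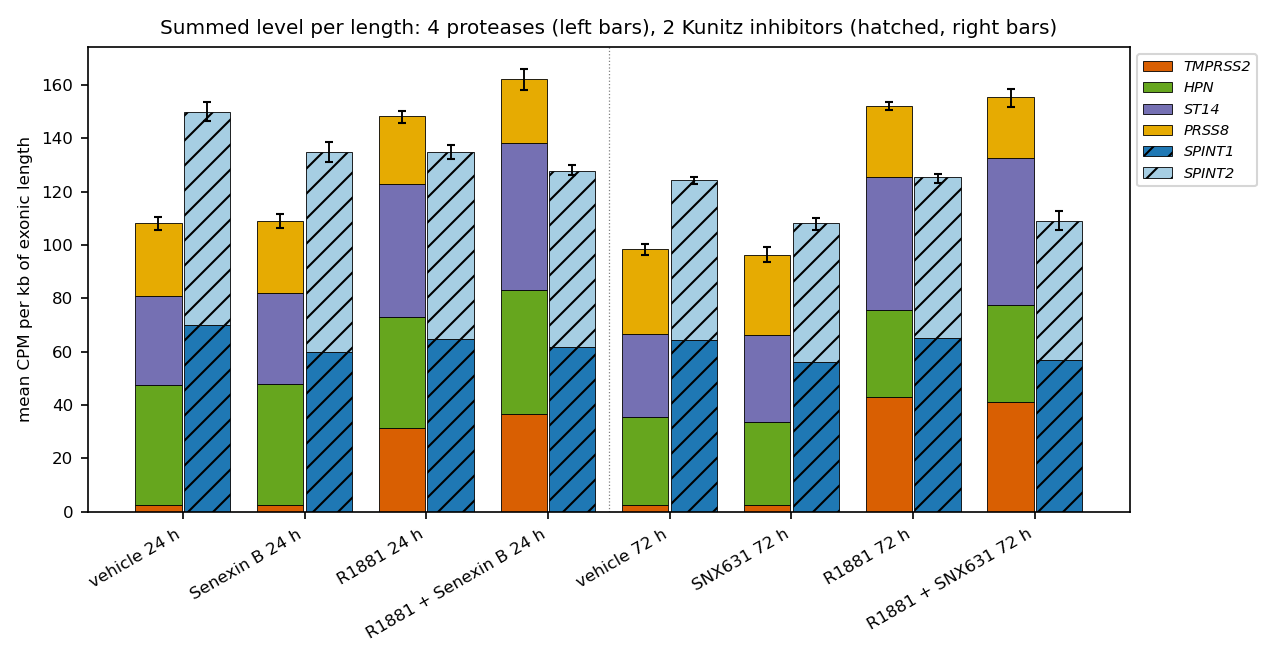
Mean CPM per kb of exonic length (vertical axis) by group, stacked for the 4 proteases (left bars) and the 2 Kunitz inhibitors (hatched right bars), with error bars for the SD of each sum over the 3 or 4 libraries. The protease bar is below the inhibitor bar in the 4 groups without R1881 and above it in the 4 groups with R1881. The SPINT2 level leaves out reads counted to the read-through gene that shares exons with it. Whether the order of the bars with R1881 would hold with those reads was not tested.

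TMPRSS2 went from a minor to a major share of the protease RNA. It made up 2.23% ± 0.051 (SD, n = 3) of the summed protease level per length in vehicle and 21.2% ± 0.30 with R1881 at 24 h. At 72 h the shares were 2.55% ± 0.14 (SD, n = 4) and 28.3% ± 0.58. HPN was the leading protease in vehicle with 41.8% ± 0.58 at 24 h and 33.5% ± 0.26 at 72 h, and ST14 led with R1881 with 33.6% ± 0.81 and 32.7% ± 0.38. The ratio of the 4 proteases to the 2 inhibitors, per length, was 0.723 ± 0.029 in vehicle, 0.809 ± 0.015 with Senexin B, 1.10 ± 0.0056 with R1881 and 1.27 ± 0.015 with both at 24 h. At 72 h it was 0.790 ± 0.014 in vehicle, 0.891 ± 0.014 with SNX631, 1.21 ± 0.014 with R1881 and 1.43 ± 0.031 with both. These are ratios of RNA and were not measured on proteins. Reads of the read-through gene that shares exons with SPINT2 were not added in them. The read-through gene had a median of 919.585 counts over the libraries, beside 3859.415 for SPINT2. With R1881 at 24 h the summed levels were 148 CPM per kb for the proteases and 135 for the inhibitors. Whether the proteases would still exceed the inhibitors with R1881 if the read-through reads were added was not tested.

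Matriptase and HAI-1 are partners, so their genes were also set against each other library by library. The log2 ratio of ST14 to SPINT1 counts was -0.74 ± 0.074 (SD, n = 4) in vehicle, -0.48 ± 0.032 with SNX631, -0.09 ± 0.050 with R1881 and 0.25 ± 0.036 with both. Each of the 4 comparisons at 72 h gave a two-sided exact permutation p of 0.0286 and an adjusted p of 0.0623. At 24 h the ratio was -0.79 ± 0.038 (SD, n = 3) in vehicle, -0.52 ± 0.067 with Senexin B, -0.08 ± 0.041 with R1881 and 0.13 ± 0.011 with both, with an exact permutation p of 0.1 in each comparison. The groups did not overlap in any of these comparisons. The smallest possible p is 0.1 for 3 against 3 libraries and 0.0286 for 4 against 4. No adjusted p of the 24 ratio tests could therefore fall below 0.05.

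The wider protease system was followed through 46 genes in 4 lists, of which 16 passed the filter in both experiments. Of 14 other type II transmembrane serine proteases, 3 were tested (TMPRSS6, TMPRSS11E and TMPRSS13), and of 4 other anchored trypsin-like proteases none was, since their counts were too low. Of 8 other inhibitors TFPI and SERPINE2 were tested, and of 20 substrates and receptors 11 were. HGF, the growth factor that hepsin and matriptase activate, was at 0 in 27 of 28 libraries with 2 counts at most. R1881 called 5 of the 16 higher and 3 lower at 24 h, and 3 higher and 4 lower at 72 h, or 8 and 7 of 16 beside 19% and 19.8% of all genes. The median log2 fold change of the 16 was -0.16 and 0.10, and that of all genes tested -0.02 and -0.01.

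**Figure D4:**
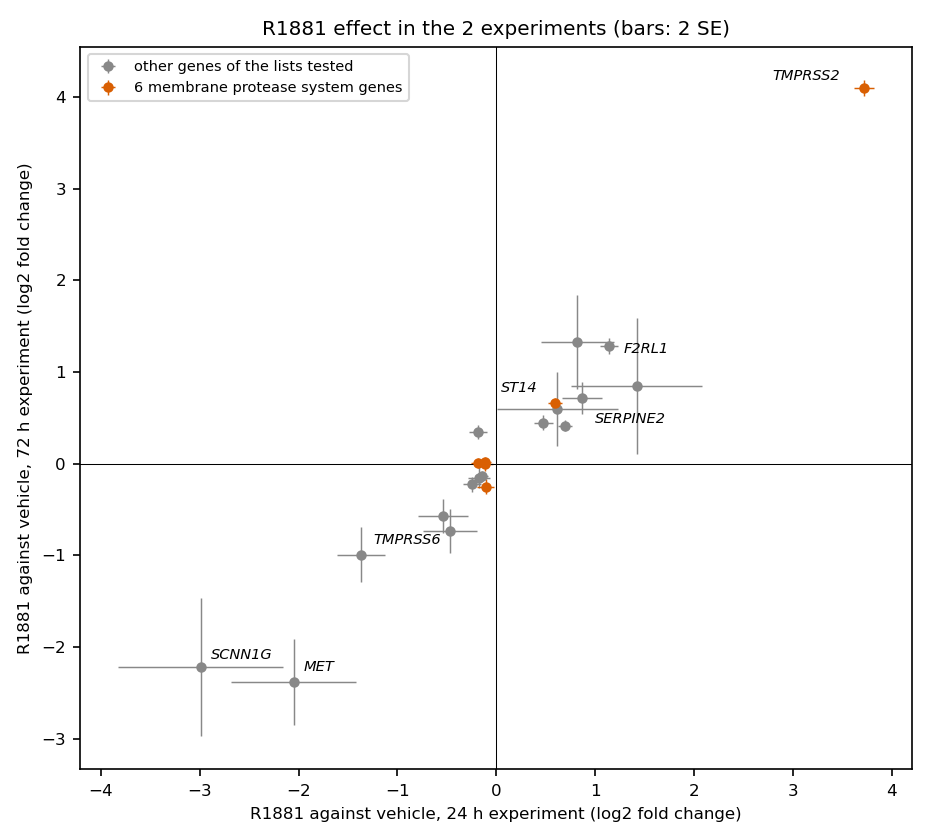
Log2 fold change for R1881 against vehicle in the 24 h experiment (horizontal axis) and in the 72 h experiment (vertical axis) for the 6 membrane protease system genes and the 16 tested genes of the 4 lists, with bars of 2 SE. TMPRSS2 lies alone at 3.72 and 4.10, ST14 lies at 0.60 and 0.66, and MET and SCNN1G lie at the lower left with log2 fold changes below -2.

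Of the list genes, 6 were called for R1881 in the same direction in both experiments, and 5 of them are described here. F2RL1, which encodes the protease-activated receptor PAR2, a matriptase substrate, rose from 37.4 ± 0.63 (SD, n = 3) to 82.8 ± 2.13 CPM at 24 h and from 36.6 ± 1.36 (SD, n = 4) to 89.0 ± 2.45 CPM at 72 h. SERPINE2, a secreted serine protease inhibitor, rose 1.83-fold and 1.64-fold.

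The lower ones included a receptor, a channel subunit and a protease. MET, the receptor for HGF, fell 4.14-fold at 24 h and 5.19-fold at 72 h, from 2.15 ± 0.24 to 0.537 ± 0.25 CPM and from 3.45 ± 0.55 to 0.659 ± 0.16 CPM. SCNN1G, a subunit of the epithelial sodium channel that prostasin activates, fell 7.93-fold and 4.65-fold from 1.79 and 1.39 CPM. TMPRSS6, a relative of matriptase known for its role in iron control in the liver, fell 2.59-fold and 1.99-fold. MET and SCNN1G were of low level, so few reads stand behind their fold changes. TMPRSS6 was higher, at 13.6 and 7.18 CPM in vehicle and 5.25 and 3.63 CPM with R1881. It held 21 to 485 counts a library.

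The CDK8/19 inhibitors called 4 of the 16 list genes with Senexin B alone, 4 with Senexin B and R1881, and 3 in each SNX631 comparison, beside 3.79%, 3.12%, 4.77% and 4.12% of all genes for Senexin B alone, Senexin B with R1881, SNX631 alone and SNX631 with R1881. The median log2 difference of the 16 in these comparisons was 0.07, -0.11, 0.07 and 0.02, and that of all genes tested lay between -0.01 and 0.01. With any 1 library left out, the count for Senexin B alone was at most 3. It was 2 without vehicle library 1, R1881 library 1, combination library 1 or Senexin B library 1 or 2. The count with Senexin B and R1881 was 2 without combination library 3. MET was the gene called in all 4: it was 2.23-fold and 2.75-fold higher with Senexin B and 2.17-fold and 2.02-fold higher with SNX631, without and with R1881. In the presence of R1881 these calls were lost without the third R1881 library (FDR = 0.0302) or the third combination library (FDR = 0.0285) at 24 h, and without the fourth R1881 library (FDR = 0.0219) or the second (FDR = 0.0143) or the third (FDR = 0.021) combination library at 72 h, all in edgeR. TMPRSS6 fell 1.92-fold with Senexin B alone and 1.82-fold with Senexin B and R1881, and with SNX631 it fell 1.8-fold in the presence of R1881 (FDR = 5.28e-04, edgeR). With SNX631 alone it was 1.43-fold lower (FDR = 0.0028, edgeR), short of the fold limit, and of the fits that leave out 1 library it was called in the one without vehicle library 3 (log2 difference -0.592, FDR = 0.00118).

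The genes next to the 6 on the chromosome gave a further view of their androgen response. MX1, an interferon-induced gene whose end lies 5.34 kb from TMPRSS2, had a log2 difference of -0.47 ± 0.20 with R1881 at 24 h (FDR = 0.044, edgeR) and fell by 0.84 on the log2 scale at 72 h (FDR = 2.68e-04, edgeR). RIPK4, 208 kb away on the other side, had log2 differences of 0.09 and 0.07. The neighbours of ST14, APLP2 and ZBTB44, had log2 differences of 0.37 and 0.28 at 24 h and of 0.51 and 0.24 at 72 h, all under the FC limit. The neighbours of the other 4 genes were called in 1 case, a gene without a symbol 39.9 kb from HPN that was higher in both experiments.

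A search for genes with a like pattern used the 6 log2 differences of treated groups from their vehicle. By the root mean square difference, the genes nearest to TMPRSS2 included FKBP5 (0.123), EAF2 (0.231), OTULINL (0.27) and GRIN3A (0.29). FKBP5 had log2 differences of 3.65 with R1881 and 3.93 with R1881 and Senexin B at 24 h, and of 3.86 and 3.97 without and with SNX631 at 72 h. Those nearest to ST14 included PDCD4 (0.0371) and MTMR12 (0.0481). For the genes with small differences many genes lie as near: MPG was nearest to HPN (0.0313), ZNF35 to PRSS8 (0.0296), MIER1 to SPINT1 (0.0226) and ATG4A to SPINT2 (0.0322). The 3 differences of an experiment share a vehicle group, and likeness is given as a description.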

How the data were processed

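RNA of 28 LNCaP libraries was sequenced from a directional kit. The authors deposited expected counts per gene, made by counting aligned reads over genes, and 16.9% of the values above 0 are not whole. Per the labels, FastQC, cutadapt 2.8, STAR 2.7.2b and featureCounts of Subread 2.0.3 were used, with the builds GRCh38.p13 and GRCm39; the annotation release and the handling of multi-mapping reads are not given in the sources used here. Here, counts were rounded, 2 added entries with no counts were left out, and genes were filtered (filterByExpr, minimum count 10, minimum total 15). The 24 h and 72 h libraries were modelled apart, 4 groups each, in edgeR 4.0.16 (R 4.3.3; TMM, quasi-likelihood test, Benjamini-Hochberg over all genes); the study's limits of FDR 0.01 and FC 1.5 set the calls. SE was the log2 fold change over the square root of F. CPM used TMM factors. Ratios were tested by exact permutation (scipy 1.17.1) and were added after the data were seen. In simulated data with 200 genes changed 2-fold, 98.5% (24 h comparison of R1881 with vehicle, 15948 genes) and 98% (72 h, 16074 genes) were recovered. The changed genes were drawn from those with a mean above 2 CPM, and all genes had the same spread. Recovery of lower genes was therefore not covered. The common biological coefficient of variation was 2.72% at 24 h and 2.38% at 72 h; depth of 9846595 to 33809419 counts sets the precision of low genes. Positions came from GENCODE 29 (GRCh38), matched to 58261 genes by identifier. The members and lists were chosen with earlier results of these data known.

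Genes named beyond the 6 followed a rule: list genes called for R1881 in the same direction in both experiments, or for the inhibitor in both comparisons of an experiment; the nearest tested protein-coding gene on each side; the genes nearest in pattern (mean of at least 1 CPM); and KLK3 and KLK2. Some genes that the rule names are not reported here. HGF was named for its role after its counts were seen. Alternatives were DESeq2 1.42.0 (size factors and Wald test), library totals, no filter, a replicate block, 1 fit of all libraries, FDR 0.05 with no FC limit, leaving out each library, and the added read-through reads.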

Additional observations from a re-analysis of the deposited data

Results flagged for a closer look

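The R1881 effect on TMPRSS2 was larger in the 72 h experiment than in the 24 h experiment by 0.388 on the log2 scale (edgeR FDR = 5.52e-04). That on SPINT2 differed by 0.193 (edgeR FDR = 0.00209), with the lower level under R1881 seen at 24 h. Time, dose and experiment cannot be told apart in either. For HPN the interaction of R1881 and SNX631 was 0.239 on the log2 scale (edgeR FDR = 6.02e-04): HPN was higher with SNX631 in the presence of R1881, and lower by a difference that missed the limit without it.

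HPN in SNX631 replicate 2 at 72 h, at 112 CPM, stood apart from the other 3 libraries of its group, which held 102 to 103 CPM. This gap is above Dixon's 95% critical value for 4 samples. Chance gives about 1 such case in 20 groups, and 24 groups of a gene were looked at. Without that library the HPN interaction with SNX631 was 0.277 (edgeR FDR = 6.13e-05).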

How the results depend on the processing

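Direction and side of the limits held in 2034 of 2128 recomputed single-gene values and 393 of 423 recomputed counts. With library totals only, R1881 called 1 of the 6 genes at 24 h and 1 at 72 h, as ST14 missed the fold limit; this scaling shifted the median of 43 listed and neighbouring genes by -0.102 (R1881) and -0.108 (R1881 under SNX631) on the log2 scale at 72 h, and SPINT1 and SPINT2 move by about that shift. With FDR under 0.05 and no fold limit, the 24 h counts of the 6 genes were 6 (R1881), 4 (R1881 under Senexin B), 2 (Senexin B), 3 (Senexin B with R1881), and the 72 h counts 4 (R1881 under SNX631), 3 (SNX631), 5 (SNX631 with R1881) and 1 (interaction); the list counts were 15, 13, 8, 9 and 2 (interaction) at 24 h, and 16, 13, 8, 11 and 7 at 72 h. The share of all genes at an FDR under 0.05 is not given here. For R1881, 48.4% (24 h) and 52.2% (72 h) of all genes passed an FDR under 0.01 at any fold. DESeq2 and 1 fit of all 28 libraries each called 2 list genes for Senexin B alone.

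Leaving out 1 library gave 1 to 2 of the 6 genes for R1881 at 24 h (1 without vehicle replicate 3). The list counts were then 2 to 3 for Senexin B alone, against 4 with all libraries, and 2 to 4 for Senexin B with R1881. For the interaction with SNX631 they were 0 to 1 (1 without R1881 replicate 3). Signs turned only among log2 values near 0. Leaving out 1 library, these spanned for HPN -0.0316 to 0.0105 (R1881, 72 h), -0.00835 to 0.0641 (R1881 under Senexin B) and -0.0266 to 0.0519 (Senexin B); for PRSS8 -0.0324 to 0.0238 (Senexin B); for SPINT1 -0.00108 to 0.0422 (R1881, 72 h) and -0.0229 to 0.0227 (interaction with SNX631); for SPINT2 -0.012 to 0.0135 (R1881, 72 h), -0.0326 to 0.0203 (R1881 under SNX631), -0.0369 to 0.0155 (interaction with SNX631) and -0.0491 to 0.0258 (interaction with Senexin B). With library totals only, HPN was -0.0366 (R1881 under Senexin B) and -0.0336 (Senexin B), SPINT1 -0.0361 (R1881 under Senexin B), -0.0854 (R1881, 72 h), -0.0875 (R1881 under SNX631) and -0.00213 (interaction with SNX631), SPINT2 0.00291 (interaction with Senexin B) and -0.096 (R1881, 72 h), and RIPK4 -0.0319 (R1881, 72 h). Of these, SPINT1 under SNX631 and SPINT2 at 72 h then had an FDR below 0.01. With no filter, HPN was -0.00521 (Senexin B) and 0.0103 (R1881, 72 h), and SPINT2 0.00317 (interaction with Senexin B) and 0.0204 (R1881 under SNX631). In 1 fit of all libraries SPINT2 was 0.00464 (R1881 under SNX631). The cause was not tested.

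Same-numbered libraries showed no sign of deviating together, as no pair had a correlation over 0.1. The chi-square per gene between replicates of a group, a gauge of spread beyond counting noise, ran from 1.196 to 2.481. It was highest for R1881 replicate 2 at 24 h, against replicates 1 (2.481) and 3 (2.433). A pairing could still go unseen and is not excluded. With the replicate block, R1881 called 2 of the 6 genes in each experiment and 8 and 7 list genes, no count of calls moved, and the SPINT2 interaction with Senexin B was 0.00111. Genes of a few CPM, such as MET and SCNN1G, are limited by depth.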
